A study of Homo sapiens with 20 samples.

Results

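PDK4, ANGPTL4, PLIN2, CPT1A and the receptors PPARA, PPARD and PPARG were followed through 16 siRNA libraries of T47D cells, an established human luminal breast cancer line. These 7 genes were found by symbol among the 57820 Ensembl genes of the count files. Of the 7, 6 passed the low-count filter that left 18806 genes for testing, and PPARG did not. After 6 h of the progestin, PDK4 and PLIN2 rose and ANGPTL4, CPT1A and PPARD fell under all 4 siRNAs. The CPT1A falls after BRG1 or FOXA1 knockdown lost significance in some alternative fits. So did the PPARD falls in si-control cells and after BRG1 knockdown, and the ANGPTL4 fall in si-control cells. The fall of ANGPTL4 was deeper after each of the 3 knockdowns than in the si-control cells. Its log2 change was -0.48 in si-control and -1.76 to -2.12 in the knockdowns. Cells without siRNA, quantified differently, gave -1.61 from 1 library at each time, with no test.

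PPARs are nuclear receptors that are activated by fatty acids and bind DNA together with retinoid X receptors. In many tissues they raise genes that move a cell from glucose towards fat as fuel, and PDK4, ANGPTL4, PLIN2 and CPT1A are commonly used as read-outs of that programme. PDK4 is a mitochondrial kinase that phosphorylates and switches off the pyruvate dehydrogenase complex. CPT1A loads long-chain fatty acids onto carnitine at the outer mitochondrial membrane, PLIN2 coats lipid droplets, and ANGPTL4 is a secreted protein that inhibits lipoprotein lipase.

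The cells carried one of 4 siRNAs: a control (si-control), or one that targets BRG1, CBX3 or FOXA1. SMARCA4 encodes BRG1, the motor subunit of SWI/SNF complexes, which slide and evict nucleosomes. CBX3 is HP1 gamma, a heterochromatin protein, and FOXA1 is a pioneer transcription factor of luminal cells. Libraries were made before hormone (0 h) and after 6 h of R5020, a synthetic progestin used at 10 nM, with 2 libraries in each of the 8 groups. Before hormone, cells were held in charcoal-treated serum and then without serum. The protocol applies to all groups, though no protocol is given for the first si-CBX3 library at 0 h. T47D cells without siRNA gave 1 RNA-seq library at 0 h, 1 at 6 h, and 1 BRG1 ChIP-seq peak list each at 0 h and 30 min. By its title, the series asks how hormone represses genes and what BRG1 contributes.

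Libraries held 50017255 to 74374857 counted fragments. Each siRNA target was lowest under its own siRNA, with SMARCA4 at 2.26 to 5.90 CPM (gene counts scaled to a common library size by TMM) in si-BRG1 against 61.7 to 76.6 in si-control. FKBP5, a standard progestin-induced gene, rose by 3.82 on the log2 scale in si-control. Luminal epithelial markers were high in every group, while the 6 adipocyte markers summed to 0.685 to 6.48 CPM and the 3 endothelial markers matched of 4 to 0.0378 to 0.974 CPM. The 6 fibroblast markers summed to 22.2 to 60.5 CPM, highest in si-BRG1 at 0 h and lowest in si-FOXA1 at 6 h, and the part of this in the results was not tested. The 10 interferon-stimulated genes listed as a check summed to 1246 to 2931 CPM in si-control and to 70.1 to 682 CPM under the knockdowns, and the median of these genes was 128 CPM in the first si-control library at 0 h against 55.6 in the other. The part of that difference in the comparisons with si-control was not tested. File headers record 8 counting threads for si-control and si-BRG1 and 1 for si-CBX3 and si-FOXA1, so for si-CBX3 and si-FOXA1 the counting run and the siRNA cannot be told apart when set against si-control.

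The 250 bases before the start of PDK4, ANGPTL4 and PPARD are printed because PDK4 had the largest rise of the 6 tested genes under each siRNA, ANGPTL4 the largest fall under each knockdown, and PPARD shares a hormone-receptor half-site with PDK4. They come from RefSeq (GRCh38.p14), run 5′ to 3′ towards the gene, and lie at chr7:95596517-95596766 on the minus strand, chr19:8363905-8364154 on the plus strand and chr6:35342308-35342557 on the plus strand. Capitals mark AGAACA, the half-site of progesterone and glucocorticoid receptors, read on the other strand as TGTTCT, and the TATA box letters TATAAA.
PDK4: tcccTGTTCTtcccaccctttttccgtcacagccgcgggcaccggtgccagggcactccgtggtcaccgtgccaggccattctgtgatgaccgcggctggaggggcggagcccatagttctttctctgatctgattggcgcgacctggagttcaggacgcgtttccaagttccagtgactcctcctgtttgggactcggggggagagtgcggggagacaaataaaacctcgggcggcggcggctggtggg
ANGPTL4: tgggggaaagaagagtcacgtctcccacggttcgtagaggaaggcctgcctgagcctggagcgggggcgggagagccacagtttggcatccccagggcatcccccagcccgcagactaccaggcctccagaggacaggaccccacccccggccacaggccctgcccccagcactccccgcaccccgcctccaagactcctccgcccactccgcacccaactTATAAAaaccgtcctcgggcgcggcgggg
PPARD: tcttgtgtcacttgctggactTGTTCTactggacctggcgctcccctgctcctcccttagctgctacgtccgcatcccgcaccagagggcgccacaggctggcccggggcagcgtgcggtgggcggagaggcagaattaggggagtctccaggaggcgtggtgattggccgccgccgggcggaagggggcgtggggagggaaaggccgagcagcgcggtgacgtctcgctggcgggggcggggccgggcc

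All 7 genes had an entry among the 35116 RefSeq promoters searched, with 2 promoters for PPARA, 6 for PPARG and 1 for each other gene. CPT1A transcripts start at 68609384 (ENST00000265641), 68611878 (ENST00000561996) and other hg19 positions. Which start its 1 window covers was not checked, and the others were not searched. Windows ran from 250 bases before to 50 bases after the start and were read on both strands. The half-site AGAACA was found at base -246 of PDK4 and base -229 of PPARD, counted from the start, and in 14.8% of all promoters. TATAAA was found at base -29 of ANGPTL4, and on the opposite strand in PLIN2 and in 2 overlapping PPARG promoters that share the site, against 11.5% of all promoters. None of the members' windows held the palindrome core ACANNNTGT (5.37% of promoters), the full element of AGAACA and TGTTCT spaced by 3 bases (0.00285%), the PPAR element of 2 AGGTCA repeats spaced by 1 base (0.0228%), its looser form with AGGNCA repeats (0.31%) or the forkhead core TGTTTAC (3.42%). The receptor half-site AGGTCA, which is part of the PPAR element, occurred in 3 PPARG promoters and in 13.8% of all promoters. Of these 3, 2 overlap and hold the same site. The half-sites, the forkhead core and the TATA letters were added after the other motifs had been searched.

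Levels differed widely between the genes once divided by exon length. Before hormone in si-control cells, CPT1A stood highest at 31.8 ± 5.02 RPKM (CPM per kilobase of exons; SD, n = 2), followed by PLIN2 at 10.7 ± 0.145. ANGPTL4 at 4.44 ± 0.477 and PPARD at 4.005 ± 0.331 were close to each other, PPARA was at 1.22 ± 0.0354, and PDK4 was lowest of the tested genes at 0.613 ± 0.0525 RPKM. After 6 h PDK4 reached 3.70 ± 0.105 RPKM in si-control and 5.71 ± 0.656 in si-BRG1. PPARG was nearly absent. It had 44 fragments over all 16 libraries, from 0 to 7 in a library, and only 6 libraries held more than 3. No fold is given for it. In these bulk samples fewer cells that express a gene and less of its RNA per cell cannot be told apart.

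**Figure D1:**
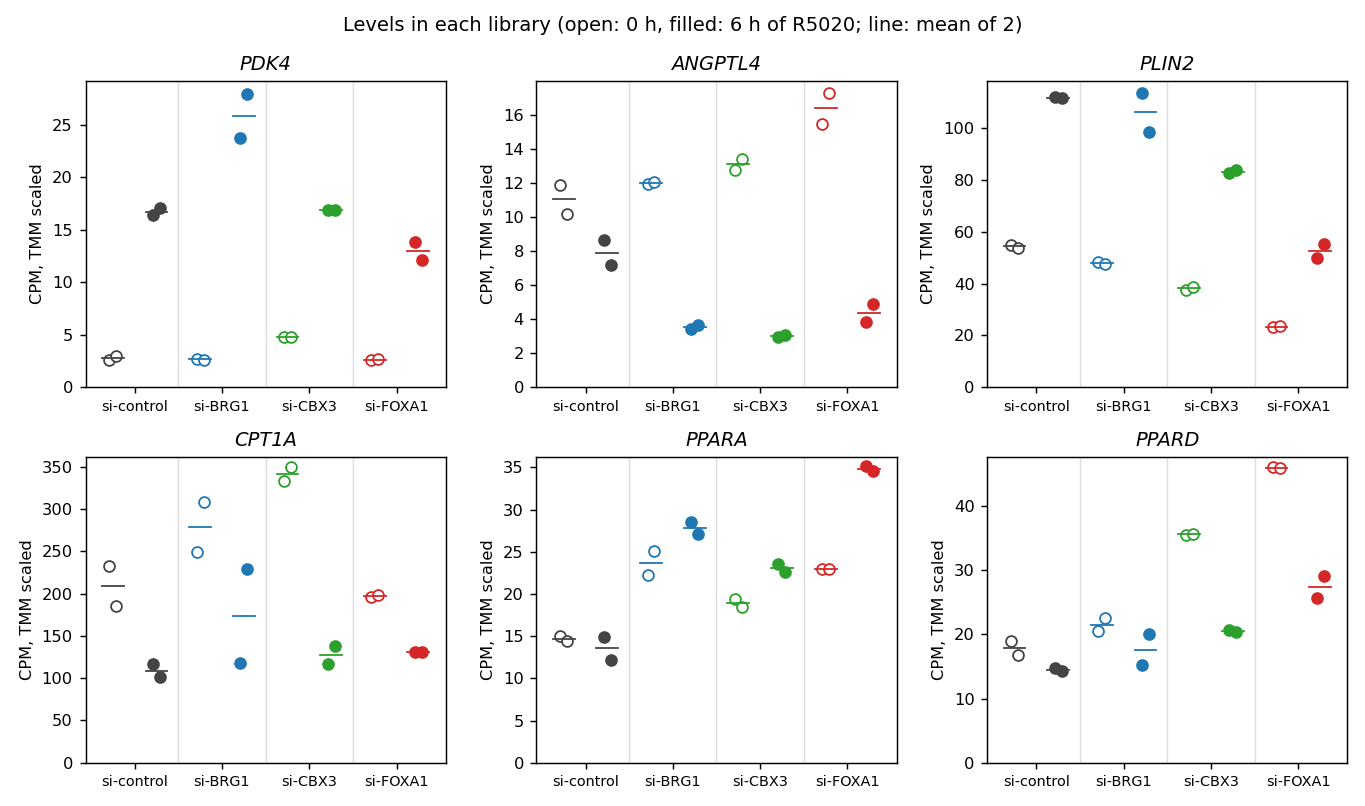
Level of each tested gene in every library, in CPM on a linear axis from 0, by siRNA. Open points are 0 h, filled points 6 h of R5020, and lines the mean of 2 libraries. PDK4 and PLIN2 lie higher at 6 h under every siRNA, ANGPTL4 drops to 2.95 to 4.90 CPM at 6 h in the knockdowns against 7.17 and 8.61 in si-control, and the 6 h libraries of si-BRG1 are far apart for CPT1A.

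Of the 6 tested members, 2 rose and 3 fell in si-control, where 19.5% of all tested genes rose and 18.1% fell (37.6% together). In si-BRG1 2 rose and 3 fell (18.6% and 17.1% of all, 35.7% together), in si-CBX3 3 rose and 3 fell (20.4% and 20.5%, 41% together) and in si-FOXA1 3 rose and 3 fell (19.1% and 19.6%, 38.8% together). A call is an adjusted p below 0.05 in edgeR's quasi-likelihood test over all 18806 genes. Changes are log2 fold changes with their standard error (SE), from 2 libraries a group.

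PDK4 lies on chromosome 7 at 95212811 to 95225803 (hg19). In si-control it was at 2.60 and 2.94 CPM before hormone and at 16.4 and 17.1 CPM after 6 h, and in si-BRG1 at 2.66 and 2.62 and then 23.7 and 27.9 CPM. In si-CBX3 it went from 4.79 and 4.78 to 16.9 and 16.9 CPM, and in si-FOXA1 from 2.63 and 2.63 to 13.8 and 12.1 CPM. Every 6 h library lay above every 0 h library, the highest were those of si-BRG1, and before hormone those of si-CBX3 stood apart from the rest. The rise was 6.03-fold in si-control (log2 2.59, SE 0.11, edgeR adjusted p = 9.0e-12), 9.79-fold in si-BRG1, 3.53-fold in si-CBX3 and 4.92-fold in si-FOXA1, all called by edgeR.

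The PDK4 rise differed from that of si-control under 2 siRNAs. It was larger in si-BRG1 (difference 0.70, SE 0.16, edgeR adjusted p = 0.018) and smaller in si-CBX3 (difference -0.77, SE 0.15, edgeR adjusted p = 0.0036). The si-FOXA1 difference was not called (-0.29, 95% interval -0.62 to 0.04). Before hormone PDK4 was 1.73-fold higher in si-CBX3 than in si-control (edgeR adjusted p = 2.2e-05), while at 6 h the groups overlapped, so the smaller rise went with a higher starting level. At 6 h PDK4 was 1.55-fold higher in si-BRG1 and 1.29-fold lower in si-FOXA1 than in si-control, both called by edgeR. The larger rise in si-BRG1 lost its call in a fit on its own and si-control libraries alone (adjusted p = 0.097), and without si-control 0 h replicate 2 (0.082), si-control 6 h replicate 2 (0.059), si-BRG1 0 h replicate 1 (0.089) or si-BRG1 0 h replicate 2 (0.066); these are edgeR adjusted p values. The si-CBX3 difference kept its call in all 13 alternatives run.

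The rest of the pyruvate dehydrogenase list moved less than PDK4 in si-control. Of its 14 genes, PDK4 included, 4 rose and 4 fell in si-control, against 19.5% and 18.1% of all tested genes, with a median of -0.13 beside -0.02 over all tested genes. PDK1, a kinase of the same family, rose by 0.63 (SE 0.08) and MPC2, a subunit of the mitochondrial pyruvate carrier, by 0.63 (SE 0.08), while PDPR and PDP1, subunits of the phosphatase that reactivates the complex, fell by 0.40 and 0.34. PDK2, another kinase, fell in si-control (-0.27), si-BRG1 (-0.46) and si-FOXA1 (-0.61). The PDK1 response was smaller than in si-control in si-CBX3 (-0.44, edgeR adjusted p = 0.024), as for PDK4, and in si-FOXA1 (-0.51, edgeR adjusted p = 0.0031). The list's median response was -0.06 in si-BRG1, 0.14 in si-CBX3 and 0.10 in si-FOXA1. Without hormone, 10 of the 14 were lower and 3 higher in si-FOXA1 than in si-control, where 33.5% of all tested genes were lower and 40% higher. PDHX (-1.41) and PDHB (-1.10), subunits of the complex, were among the lower genes.

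CPT1A lies on chromosome 11 at 68522088 to 68611878 (hg19). In si-control it was at 232 and 186 CPM before hormone and at 117 and 101 CPM after 6 h, and in si-CBX3 it went from 333 and 349 to 116 and 138 CPM. In si-FOXA1 it went from 196 and 198 CPM to 131 in both libraries, and in si-BRG1 from 249.2 and 308 to 118 and 229 CPM. The si-BRG1 libraries at 6 h differed 1.93-fold from each other, more than any other pair for this gene, and this is also the pair that differed most over all genes. CPT1A fell by 0.94 in si-control, 0.68 in si-BRG1, 1.43 in si-CBX3 and 0.59 in si-FOXA1, each with an SE of 0.20 and each called by edgeR (adjusted p 0.0013, 0.012, 2.1e-05 and 0.027).

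The falls of CPT1A in si-control and si-CBX3 kept their call in all 9 alternatives. The si-BRG1 value was -0.29 without si-BRG1 6 h replicate 1 (edgeR adjusted p = 0.09995), -0.52 without si-BRG1 0 h replicate 2 (0.12) and -0.67 in a fit on the si-BRG1 libraries alone (0.14), none of them called, and -1.24 without si-BRG1 6 h replicate 2. The si-FOXA1 fall lost its call by DESeq2 (adjusted p = 0.075) and without any 1 of its 4 libraries (edgeR adjusted p from 0.078 to 0.118). No difference of the CPT1A response from si-control was called, and the intervals were wide: -0.34 to 0.85 for si-BRG1, -1.08 to 0.11 for si-CBX3 and -0.24 to 0.95 for si-FOXA1. Some alternatives did call it. The si-BRG1 difference was 0.65 without si-BRG1 6 h replicate 1 (edgeR adjusted p = 0.015). With no filter and in a fit on the compared libraries alone, the si-CBX3 difference was -0.47 and -0.49 (edgeR adjusted p = 0.0012 and 0.049) and the si-FOXA1 difference 0.36 and 0.42 (edgeR adjusted p = 0.011 and 0.026). The CPT1A level before hormone in si-BRG1 against si-control was 0.42, not called (edgeR adjusted p = 0.13). The same 2 alternatives called it, at 0.39 and 0.40 (edgeR adjusted p = 1.6e-05 and 0.044). Before hormone CPT1A was 1.63-fold higher in si-CBX3 than in si-control (edgeR adjusted p = 0.0061), a call lost without si-control 0 h replicate 2 (0.095). At 6 h it was 1.59-fold higher in si-BRG1 (log2 0.67, edgeR adjusted p = 0.014), a value that was 0.12 without si-BRG1 6 h replicate 2 (0.55), 1.07 without si-BRG1 6 h replicate 1, and not called without si-control 6 h replicate 2 (0.12) or in a fit on the compared libraries alone (0.093).

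In the carnitine shuttle that CPT1A feeds, 2 of 9 tested genes rose and 3 fell in si-control, CPT1A included, against 19.5% and 18.1% of all tested genes, with a median of -0.60 beside -0.02. SLC25A20, which carries acylcarnitines across the inner membrane, fell by 0.81 (SE 0.09), and SLC22A5, the plasma membrane carnitine transporter, rose by 0.51 (SE 0.07), as did CRAT, carnitine acetyltransferase, by 0.36. SLC22A5 rose under all 4 siRNAs, and more than in si-control in si-CBX3 (difference 0.51, edgeR adjusted p = 0.0027) and si-FOXA1 (0.41, edgeR adjusted p = 0.0044). CPT2, which moves the fatty acid from carnitine to CoA inside the mitochondrion, was lower in si-FOXA1 than in si-control before hormone (-1.42), as was SLC25A20 (-1.45). Over the whole list, the median response was -0.35 in si-BRG1, -0.32 in si-CBX3 and 0.07 in si-FOXA1.

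PLIN2 lies on chromosome 9 at 19108373 to 19149288 (hg19). Its libraries were at 55.0 and 53.9 CPM before and 112 and 112 CPM after hormone in si-control, and at 48.4 and 47.6 and then 114 and 98.6 CPM in si-BRG1. In si-CBX3 they went from 37.4 and 38.9 to 82.7 and 84.0 CPM, and in si-FOXA1 from 23.2 and 23.7 to 49.8 and 55.3 CPM. The rise was near 2-fold everywhere: 2.06-fold in si-control, 2.21-fold in si-BRG1, 2.18-fold in si-CBX3 and 2.24-fold in si-FOXA1, all called by edgeR and kept in all 9 alternatives. The differences from si-control were 0.11, 0.09 and 0.13, with 95% intervals of -0.12 to 0.33, -0.14 to 0.31 and -0.10 to 0.35.

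The PLIN2 level differed between siRNAs. Before hormone it was 1.43-fold lower in si-CBX3 and 2.32-fold lower in si-FOXA1 than in si-control, and at 6 h it was 1.34-fold and 2.13-fold lower, all called by edgeR. After 6 h of hormone the si-FOXA1 libraries overlapped those of si-control before hormone. The si-BRG1 values were not called at either time (-0.18 and -0.08), but the 0 h value was called with DESeq2 (-0.22, adjusted p = 0.024), with its size factors in edgeR (-0.22, adjusted p = 0.036) and in a fit on the compared libraries alone (-0.20, adjusted p = 0.048).

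Among 16 tested genes of lipid droplets and lipolysis, 6 rose and 2 fell in si-control, PLIN2 included, against 19.5% and 18.1% of all tested genes, with a median of 0.40 beside -0.02. HILPDA, a droplet protein that inhibits the lipase ATGL, rose from 94.3 ± 0.604 to 384 ± 1.15 CPM (SD, n = 2), a rise of 2.02 (SE 0.08). MGLL, monoacylglycerol lipase, rose by 0.74 and PLIN3, another droplet coat protein, by 0.42, while SOAT1, which esterifies cholesterol for storage, fell by 1.17 (SE 0.07). HILPDA rose under each siRNA, less than in si-control in si-CBX3 (difference -0.76, edgeR adjusted p = 0.00023) and si-FOXA1 (-0.35, edgeR adjusted p = 0.020). Before hormone HILPDA was 3.97-fold lower and SOAT1 4.84-fold lower in si-FOXA1 than in si-control, the direction also seen for PLIN2. The SOAT1 response was less negative than in si-control under all 3 knockdowns (differences 0.46, 0.71 and 1.04, edgeR adjusted p = 0.015, 0.00023 and 1.0e-06). Over the whole list, the median response was -0.07 in si-BRG1, 0.09 in si-CBX3 and 0.05 in si-FOXA1, not the 0.40 of si-control.

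**Figure D2:**
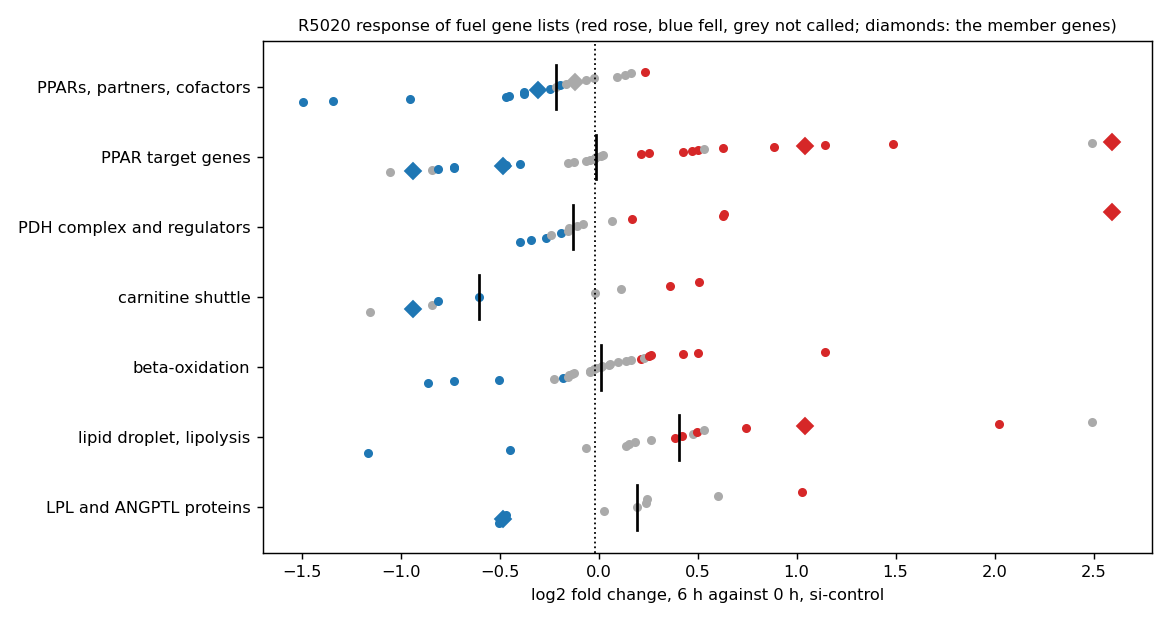
Log2 fold change from 0 h to 6 h in si-control for every tested gene of 7 lists; each point is a gene, diamonds are the member genes, red rose, blue fell and grey was not called. Bars are list medians and the dotted line the median of all tested genes (-0.02). PDK4 is the farthest called gene to the right, and the lists hold genes on both sides of 0.

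ANGPTL4 lies on chromosome 19 at 8428173 to 8439257 (hg19), with 141 to 1134 fragments per library. In si-control it was at 11.9 and 10.2 CPM before hormone and at 8.61 and 7.17 CPM after 6 h, and in si-BRG1 at 11.9 and 12.0 and then 3.41 and 3.65 CPM. In si-CBX3 it went from 12.8 and 13.4 to 2.95 and 3.06 CPM, and in si-FOXA1 from 15.5 and 17.3 to 3.80 and 4.90 CPM. All 0 h libraries lay above all 6 h libraries, and at 6 h the 2 si-control libraries lay above all 6 knockdown libraries. None of the 8 groups overlapped its neighbour in the order of levels.

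The fall of ANGPTL4 was 1.397-fold in si-control (log2 -0.48, SE 0.12, edgeR adjusted p = 0.0046), 3.39-fold in si-BRG1, 4.35-fold in si-CBX3 and 3.75-fold in si-FOXA1 (log2 -1.76, -2.12 and -1.91). The difference from si-control was -1.28 for si-BRG1, -1.64 for si-CBX3 and -1.43 for si-FOXA1 (SE 0.18, 0.18 and 0.17), with edgeR adjusted p = 0.0017, 2.9e-05 and 1.5e-05. All 3 share the si-control libraries, so they are not independent of each other. Differences in this direction were called for 3.72%, 4.36% and 15.7% of tested genes. All 3 kept their call in the 13 alternatives run for each, and without the first si-control library at 0 h they were -1.36, -1.70 and -1.51. The si-control fall was not called without si-control 6 h replicate 2 (-0.37, edgeR adjusted p = 0.073).

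Before hormone ANGPTL4 was 1.48-fold higher in si-FOXA1 than in si-control (edgeR adjusted p = 0.00031), and the values for si-BRG1 (0.12) and si-CBX3 (0.25) were not called. At 6 h it was 2.23-fold lower in si-BRG1, 2.62-fold lower in si-CBX3 and 1.81-fold lower in si-FOXA1, all called by edgeR. In si-FOXA1 the gene was thus above si-control before hormone and below it at 6 h.

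The lipase that ANGPTL4 inhibits, LPL, did not pass the low-count filter. Of the 9 tested genes in the list of lipase partners and angiopoietin-like proteins, ANGPTL4 included, 1 rose and 3 fell in si-control, against 19.5% and 18.1% of all tested genes, with a median of 0.19 beside -0.02. VLDLR, a receptor that takes up triglyceride-rich lipoproteins, rose from 10.1 ± 0.890 to 20.7 ± 1.38 CPM (SD, n = 2) and rose under all 4 siRNAs by 1.00 to 1.26. SEL1L, an adaptor of protein quality control in the endoplasmic reticulum, fell by 0.50 and CD36, a fatty acid transporter, by 0.47, both in si-control. Over the whole list, the median response was -0.24 in si-BRG1, -0.15 in si-CBX3 and -0.23 in si-FOXA1.

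**Figure D3:**
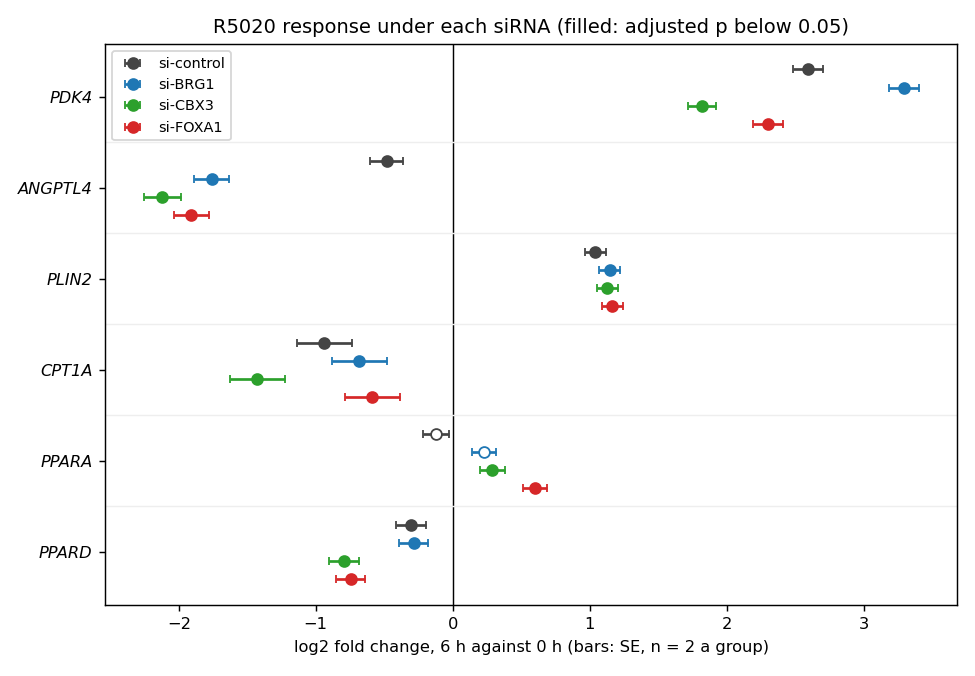
Log2 fold change from 0 h to 6 h of R5020 with its SE for each tested gene under each siRNA, 2 libraries a group; filled points have an adjusted p below 0.05. ANGPTL4 is at -0.48 in si-control and at -1.76 to -2.12 in the knockdowns, the PLIN2 values lie within 1.04 to 1.17, and PPARA runs from -0.12 to 0.60.

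PPARA, the receptor that drives fat oxidation in liver, lies on chromosome 22 at 46546424 to 46639653 (hg19). It was at 15.0 and 14.4 CPM before and 14.9 and 12.2 CPM after hormone in si-control, and at 22.3 and 25.1 and then 28.5 and 27.1 CPM in si-BRG1. In si-CBX3 it went from 19.4 and 18.4 to 23.6 and 22.7 CPM, and in si-FOXA1 from 23.0 and 22.9 to 35.1 and 34.5 CPM. All 4 si-control libraries lay below all 12 knockdown libraries. The R5020 change was not called in si-control (-0.12, 95% interval -0.32 to 0.08) or in si-BRG1 (0.23, edgeR adjusted p = 0.057). It rose by 0.29 in si-CBX3 and by 0.60 in si-FOXA1 (SE 0.09 for both, edgeR adjusted p = 0.018 and 4.7e-05).

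The si-FOXA1 response of PPARA was higher than that of si-control by 0.72 (SE 0.13, edgeR adjusted p = 0.00061), kept in all 13 alternatives. Differences in this direction were called for 13% of tested genes. The differences for si-BRG1 (0.35, edgeR adjusted p = 0.13) and si-CBX3 (0.41, edgeR adjusted p = 0.064) were not called. Without si-control 6 h replicate 1 both were, at 0.53 (edgeR adjusted p = 0.043) and 0.60 (0.013), and the si-CBX3 difference was also called by DESeq2 (0.029). Without that library the si-control value was -0.29 and called (edgeR adjusted p = 0.048). Against si-control, PPARA was higher before hormone by 0.69 in si-BRG1, 0.36 in si-CBX3 and 0.64 in si-FOXA1 (SE 0.09), and at 6 h by 1.04, 0.77 and 1.36, with every call of edgeR kept in all 9 alternatives. The si-CBX3 response lost its call without si-CBX3 0 h replicate 2 (edgeR adjusted p = 0.13), si-CBX3 6 h replicate 1 (0.079) or si-CBX3 6 h replicate 2 (0.051).

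PPARD, the most widely expressed receptor of the family, lies on chromosome 6 at 35310335 to 35395968 (hg19). It was at 18.9 and 16.8 CPM before and 14.7 and 14.2 CPM after hormone in si-control, and at 20.5 and 22.5 and then 15.2 and 20 CPM in si-BRG1. In si-CBX3 it went from 35.5 and 35.6 to 20.6 and 20.4 CPM, and in si-FOXA1 from 46.1 and 45.9 to 25.7 and 29.1 CPM. The 0 h libraries of si-FOXA1 and si-CBX3 were the highest, and even at 6 h both stayed above si-control before hormone. PPARD fell by 0.79 in si-CBX3 and by 0.75 in si-FOXA1 (SE 0.11 for both, edgeR adjusted p = 1.3e-05 and 2.7e-05).

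The falls of PPARD by 0.30 in si-control and 0.29 in si-BRG1 were near the threshold (edgeR adjusted p = 0.040 and 0.049). The first lost its call without si-control 0 h replicate 1 (0.20), si-control 6 h replicate 1 (0.088) or si-control 6 h replicate 2 (0.16). The second lost it without si-BRG1 0 h replicate 1 (0.061), si-BRG1 0 h replicate 2 (0.28) or si-BRG1 6 h replicate 1 (0.44), and in a fit on the si-BRG1 libraries alone (0.23); these are edgeR adjusted p values. It was -0.11 without si-BRG1 6 h replicate 1 and -0.50 without si-BRG1 6 h replicate 2. The larger fall in si-FOXA1 than in si-control (-0.44, edgeR adjusted p = 0.040) was not called without si-control 0 h replicate 2 (-0.35, 0.16), and the adjusted p was 0.090 to 0.153 without si-control 6 h replicate 1, si-control 6 h replicate 2, si-FOXA1 0 h replicate 1, si-FOXA1 0 h replicate 2 or si-FOXA1 6 h replicate 1. The si-CBX3 difference was -0.49 (edgeR adjusted p = 0.059), and it was called with DESeq2 (0.030), with no filter (0.027) and in a fit on the compared libraries alone (0.010). Before hormone PPARD was 1.99-fold higher in si-CBX3 and 2.57-fold higher in si-FOXA1 than in si-control, and at 6 h 1.42-fold and 1.90-fold higher, all called by edgeR in all 9 alternatives.

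**Figure D4:**
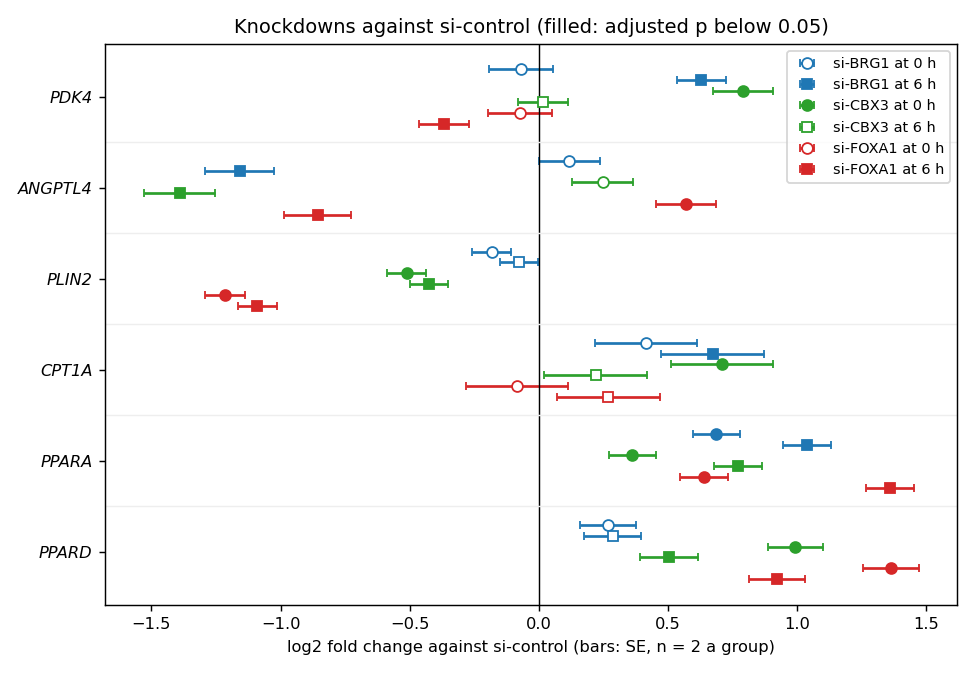
Log2 fold change of each knockdown against si-control with its SE, 2 libraries a group; circles are 0 h, squares 6 h, and filled symbols have an adjusted p below 0.05. PPARA lies right of 0 in all 6 comparisons, PLIN2 left of 0 in all 6, and ANGPTL4 right at 0 h and left at 6 h.

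Counted by knockdown before hormone, 1 of the 6 tested members was higher and none lower in si-BRG1, where 15.1% of all tested genes were higher and 13.4% lower (28.5% together). In si-CBX3 4 were higher and 1 lower (28.1% and 26% of all, 54.1% together), and in si-FOXA1 3 were higher and 1 lower (40% and 33.5%, 73.5% together). At 6 h 3 were higher and 1 lower in si-BRG1 (19.6% and 17.8%, 37.3% together), 2 higher and 2 lower in si-CBX3 (24.7% and 24.4%, 49.2% together), and 2 higher and 3 lower in si-FOXA1 (40.1% and 34.5%, 74.6% together). The R5020 response was higher than in si-control for 1 member and lower for 1 in si-BRG1 (1.49% and 3.72%, 5.22% together), lower for 2 and higher for none in si-CBX3 (4.36% and 4.63%, 8.99% together), and higher for 1 and lower for 2 in si-FOXA1 (13% and 15.7%, 28.7% together).

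Among 19 tested receptors, partners and cofactors, 1 rose and 10 fell in si-control, against 19.5% and 18.1% of all tested genes, with a median of -0.22 beside -0.02. PPARA and PPARD were among the 19. The counts were 1 and 7 in si-BRG1 (18.6% and 17.1% of all tested genes) and 3 and 10 in si-CBX3 (20.4% and 20.5%). In si-FOXA1 they were 4 and 7 (19.1% and 19.6%). PPARGC1A, the coactivator PGC-1 alpha of mitochondrial genes, fell from 8.60 ± 0.393 to 3.06 ± 0.263 CPM (SD, n = 2; -1.49, SE 0.13). TBL1XR1, a subunit of the corepressor complex, fell by 0.95 and NRIP1, a coregulator of nuclear receptors, by 0.38. PPARGC1B, PGC-1 beta, was at 12.1 ± 1.34 and 11.6 ± 0.824 CPM in si-control (not called) and went from 9.59 ± 0.457 to 33.2 ± 0.419 CPM in si-FOXA1, a difference in response of 1.85 (SE 0.16, edgeR adjusted p = 3.6e-07). LPIN1, which also acts as a coactivator of PPARA, gave the same direction (difference 1.18, SE 0.11). RXRA, the dimer partner of PPARs, was higher in si-CBX3 than in si-control before hormone (0.86, SE 0.08), as were PPARA and PPARD, and also in si-FOXA1 (0.68, SE 0.08).

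The wider PPAR target list did not move one way. Of 31 tested genes, 4 of them members, 11 rose and 7 fell in si-control, against 19.5% and 18.1% of all tested genes, and the median was -0.01. ACSL1, which activates fatty acids, rose by 1.49 (SE 0.07). EHHADH, an enzyme of peroxisomal oxidation, fell by 0.73. In β-oxidation, with 27 tested genes, 6 rose and 4 fell, among them ECI2 up by 0.43 and ACOX2 down by 0.86. The target list shares 27 of its 45 genes with the other lists, so these counts overlap.

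Before hormone, 19 of the 31 tested targets were lower and 8 higher in si-FOXA1 than in si-control. Of the 27 β-oxidation genes, which overlap the targets, 20 were lower and 3 higher. Among all tested genes 33.5% were lower and 40% higher. ECI2, an isomerase of unsaturated fatty acid oxidation, was lower (-1.84, SE 0.07), as was ETFA (-1.72, SE 0.08), which passes electrons from the acyl-CoA dehydrogenases on. PPARA, PPARD and ANGPTL4 were higher in the same libraries. In si-CBX3, 11 targets were higher and 4 lower before hormone, against 28.1% and 26% of all tested genes, with CD36 at 0.82 and ACADVL, which starts oxidation of very long chains, at 0.57. In si-BRG1, 5 were higher and 7 lower, against 15.1% and 13.4% of all tested genes, with ACSL1 at -0.76 (SE 0.07).

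Likeness was described by Pearson's r of log2 CPM over the 8 group means, among 9793 genes with a mean log2 CPM of at least 3. The points share libraries and the hormone step. PDK4 was most like KIAA0040 (0.991), FKBP5 (0.988), LEF1 (0.977) and KIAA0232 (0.975), and all 4 stayed its nearest over the 16 single libraries. ANGPTL4 was most like CCAR2 (0.946), CISH (0.941), ZNF687 (0.939) and KCTD15 (0.929), and PLIN2 like LACTB (0.996), SLC25A17 (0.993), NLN (0.990) and MRPS5 (0.987). CPT1A was nearest to CRYBG1 (0.973), ZNF329 (0.965), SCAF8 (0.960) and PPP2R5C (0.959), PPARA to ZNF354A (0.972), ZNF318 (0.968), ZNF542P (0.954) and DDHD2 (0.949), and PPARD to QRICH1 (0.974), HNRNPUL1 (0.973), ASB16-AS1 (0.972) and ABCF1 (0.972). Over the 16 libraries 2 to 4 of each gene's 4 neighbours stayed among its nearest 4. Others moved down, CCAR2 to rank 13 for ANGPTL4, PPP2R5C to 27 for CPT1A, ZNF318 to 30 for PPARA, and QRICH1 to 24 and ABCF1 to 283 for PPARD. Among the members, PDK4 ran against ANGPTL4 (-0.878) and PLIN2 against PPARD (-0.901), while PDK4 and PLIN2 ran together (0.812).

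In cells without siRNA there was 1 library at each time, so no test was possible. Values are RPKM summed over transcripts, and ratios are log2 of RPKM plus 1. PDK4 went from 0.283 to 1.68 RPKM (ratio 1.06), PLIN2 from 12.9 to 41.6 (1.62) and ANGPTL4 from 10.4 to 2.74 (-1.61). These 3 passed 2-fold, against 5.87% of 17398 genes that did so upwards and 1.91% downwards. The value added to RPKM holds down the ratio of low genes: with 0.1 in place of 1, the PDK4 ratio was 2.22, and PPARA also passed 2-fold, at -1.24 in place of -0.97. CPT1A went from 38.1 to 29.1 RPKM (-0.38) and PPARD from 1.96 to 1.58 (-0.20), and PPARG was at 0.0406 RPKM at 0 h and listed at 0 at 6 h.

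The transcript assignments differed between these 2 libraries. For ANGPTL4, transcript ENST00000594348 was at 10.0 RPKM at 0 h and listed at 0 at 6 h, while ENST00000301455 went from 0.363 to 2.28 RPKM. By estimated reads scaled to the library total, which leaves transcript length out, the ANGPTL4 ratio was -1.11 and that of PPARA -0.08, where its RPKM ratio was -0.97 (4.83 to 1.98 RPKM). The PDK4 ratio was 1.62 by that measure and the CPT1A ratio -0.60. PDK4, PLIN2, ANGPTL4, CPT1A and PPARD, each called under all 4 siRNAs, had the same sign in cells without siRNA, where no replicate was made. The share of all tested genes with such agreement was not computed. The PPARD ratio of -0.20 was small, and 19.3% of tested genes had a lower ratio. The ANGPTL4 ratio of -1.61 lay between the si-control value of -0.48 and the knockdown values of -1.76 to -2.12. With 0.1 added in place of 1 it was -1.89, within the knockdown values, and by estimated reads -1.11. The files were quantified differently and the difference was not tested.

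BRG1 peaks were set beside the genes in hg19 coordinates. None of the 7 genes had a peak within 5 kb of its 5′ end among the 2288 peaks at 0 h or the 6180 peaks at 30 min, against 1.89% and 10.3% of tested genes. Within 50 kb, none had one at 0 h, and PDK4 and CPT1A had one at 30 min, against 24.3% of tested genes. The PDK4 peak, at chromosome 7, 95237922 to 95238843, lay 12.1 kb upstream with a score of 111, and the CPT1A peak, at chromosome 11, 68638748 to 68640434, lay 26.9 kb upstream with a score of 119.5. Scores are the authors' own, and their median in that list was 69.7. At 30 min the nearest peaks to PLIN2 and PPARA lay 81.1 and 93.5 kb away, and that of ANGPTL4 3027 kb away. For PLIN2 the distance runs from the outermost 5′ end at 19149288. Its transcript ENST00000276914, at 13.7 RPKM at 6 h without siRNA, starts at 19127574, farther from that peak. Each list came from 1 library, and peaks missing from it may be below its detection limit.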

How the data were processed

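Per the file headers, the authors counted read pairs per gene with featureCounts 1.4.6-p2, using strand, on GENCODE 19 models of hg19; these deposited counts are not normalized. The submitters' processing notes name STAR and Trimmomatic. In the files without siRNA the authors deposited RPKM and estimated reads per transcript, and the sources used here do not name the tool. Each BRG1 peak carries a score deposited by the authors; the peak names in the file come from MACS, and the scale of the score is not stated there.

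Symbols were matched for 51996 of 57820 genes (89.9%). Counts were filtered with filterByExpr over 8 groups, scaled by TMM and fitted once over 16 libraries with edgeR 4.0.16 in R 4.3.3, leaving 8 residual degrees of freedom. Two-sided quasi-likelihood tests were adjusted by Benjamini-Hochberg over all genes tested. In simulated data for the si-control response, 90% of changes of 1 and 99% of changes of 2 (log2) were recovered and 0.0695% of unchanged genes called, over 18893 genes. Every simulated gene had the same dispersion, and changes were placed only in genes above a set count. Real spread differed between genes, with an SE of 0.20 for CPT1A and 0.075 for PLIN2 in the si-control response. The simulated rates may not hold for genes with a wider spread. DESeq2 1.42.0, its size factors, no filter, the compared libraries alone, a replicate block and leaving out each library were the alternatives. Ratios without siRNA use a pseudocount of 1 RPKM. No label tells if the 2 libraries of a group came from separate cultures, so the p-values cover the spread between libraries, which may be technical. The members and gene lists were chosen with earlier results of these data known. Named genes are the members, the siRNA targets, FKBP5, up to 4 non-members per list with the lowest p in the si-control response, up to 2 in each other comparison described, and the 4 genes most like each tested member. Some genes that this rule selects are not reported here.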

Additional observations from a re-analysis of the deposited data

Results flagged for a closer look

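The R5020 response differed from that of si-control, by edgeR's test of the difference itself, for 7 pairs of gene and siRNA. For ANGPTL4 the difference was -1.28 in si-BRG1, -1.64 in si-CBX3 and -1.43 in si-FOXA1 (log2, 2 libraries a group). For PDK4 it was 0.70 in si-BRG1 and -0.77 in si-CBX3, opposite directions for the same gene; the first lost its call in 5 of 13 alternatives (edgeR adjusted p 0.059 to 0.097) and the second in none of 13. In si-FOXA1 it was 0.72 for PPARA and -0.44 for PPARD, upwards for one receptor and downwards for the other; the PPARD call was lost in 6 of 13 alternatives (edgeR adjusted p 0.090 to 0.156), and the si-CBX3 value for PPARD was -0.49 and not called. All 7 share the si-control libraries at 0 h and 6 h. The ANGPTL4 response itself was -0.48 in si-control, and its ratio without siRNA was -1.61 (1 library at each time, no test).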

How the results depend on the processing

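With 2 libraries a group, small differences and the lowly expressed PPARG are out of reach. In a fit on the compared libraries alone, edgeR called 4342 genes for the si-BRG1 response, 3814 for si-BRG1 against si-control at 6 h and 67 for the difference of the si-BRG1 response (6706, 7024 and 981 over all libraries). DESeq2 called 1544 for that difference. Leaving out 1 library gave 3246 to 4665 genes for si-BRG1 against si-control at 0 h (5352 with all), 147 to 2840 for the si-BRG1 difference, and 825 to 2076 for the si-CBX3 difference (1690 with all). Within 50 kb in place of 5 kb, 2 members had a BRG1 peak at 30 min.

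Only uncalled values changed sign. PDK4 in si-CBX3 against si-control at 6 h (0.02) was -0.01998 with DESeq2 or its size factors, -0.00806 with no filter, and -0.0103 to 0.04487 without 1 library. Without 1 library, the PPARA response in si-control ran from -0.285 to 0.003425, PDK4 in si-BRG1 at 0 h from -0.1825 to 0.01262, CPT1A in si-FOXA1 at 0 h from -0.279 to 0.02341 and PLIN2 in si-BRG1 at 6 h from -0.1844 to 0.02422. The si-BRG1 differences of response ran from -0.004631 to 0.2043 for PLIN2, -0.2974 to 0.6522 for CPT1A and -0.1984 to 0.1973 for PPARD. The cause was not tested.

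Replicate numbers are shared by 2 pairs per siRNA, and no label says whether an equal number marks a shared culture or day. Deviations from the group mean correlated between 0 h and 6 h at -0.0118 to 0.0928 over genes, a single value per siRNA. These values cannot tell whether the libraries were paired. With the replicate block, all 78 member results kept their direction and side of the threshold, and the response differences counted 747, 1495 and 5132 genes for si-BRG1, si-CBX3 and si-FOXA1.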
